A study of Mus musculus with 6 samples.

Results

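The 32 genes described here encode the folding machinery of the endoplasmic reticulum (ER), the sensors of the unfolded protein response, and the components of ER-associated degradation (ERAD). They were chosen by gene symbol from a list of these functions, with earlier results of these data known. All 32 were found among the 17023 genes of the deposited expression table. RNA was sequenced from primary airway smooth muscle cells of wild-type mouse lung, the cells that form the contractile layer around the airways. In the co-culture group (3 samples) they shared transwell plates with mouse airway epithelial cells for 5 days, and in the control group (3 samples) they were kept in such plates without them. A transwell plate holds the cell types on separate sides of a porous membrane, so that dissolved molecules pass between them. The study asked what lies behind a proliferation phenotype of the smooth muscle cells. The labels give no age or sex of the mice. Whether the 3 samples of one group were independent cultures or mice is not stated either, and the p-values below therefore reflect the variation between these samples, possibly technical variation alone.

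Proteins that enter the secretory pathway are threaded into the ER through the Sec61 channel, folded there by chaperones and disulfide isomerases, and, where folding fails, pulled back into the cytosol and destroyed by the proteasome. When unfolded proteins accumulate, the membrane sensors Ern1 (IRE1), Atf6 and Eif2ak3 (PERK) switch on the unfolded protein response. Ern1 does so by cutting a short intron out of Xbp1 mRNA, Atf6 by releasing a transcription factor from its own cytosolic part, and PERK by slowing translation and raising Atf4. XBP1 and ATF6 then bind ER stress response elements in the promoters of chaperone and ERAD genes. Cells that secrete much matrix or antibody carry a large folding machinery, and smooth muscle cells in culture make collagen and elastin, which pass through the ER.

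Total estimated counts were between 17496056 and 18496623 per library. Control libraries are named by their column numbers, 4 to 6. Control library 4 stood apart. Its genes under 1000 bases lay a median of 0.72 on the log2 scale above their mean over the libraries (1345 genes), against -0.24 to -0.07 in the other 5 libraries, and its normalisation factor was 0.8855, against 1.0005 to 1.0388. Gene-level fold changes of the 32 genes that gained a call or moved by over 1.5 times without it are therefore given both ways. Of 10 smooth muscle markers, 7 were above 1 CPM (count per 1000000 counts of the scaled library) in some library, and their summed level was 222 to 252 CPM in co-culture, against 341 to 342 CPM in controls. Acta2, Tagln and Cnn1 were lower in co-culture and Myocd was higher by the test below. Of these, Cnn1 did not exceed 1.05 CPM and Myocd did not exceed 0.833 CPM in any library. Myh11, a defining gene of contractile smooth muscle, did not exceed 1.54 CPM in any library. Fibroblast markers summed to 1478 to 1525 CPM in co-culture, against 1284 to 1438 CPM in controls. They did not move together: Dpt and Cd34 were called higher, and Col14a1 (log2 fold change -2.92) and Tcf21 were called lower. Airway epithelial markers summed to 11.2 to 13.0 CPM in co-culture, against 19.8 to 27.6 CPM in controls, with 3 of 14 above 1 CPM (Trp63, Krt18 and Muc1). Krt18 carried the difference in the sum and was called lower, Trp63 and Muc1 were called higher, and Krt5 was at or below 0.110 CPM throughout. Leukocyte and macrophage markers summed to 82.0 to 89.9 CPM in co-culture, against 107 to 163 CPM in controls, with 13 of 14 above 1 CPM and Ptprc, which marks all leukocytes, below 1 CPM. Csf1r, C1qa, C1qb and C1qc were called lower and Mrc1 higher. The highest sum was that of control 4, where Lyz2, with a short transcript, had 103 CPM, against 49.7 and 56.0 CPM in controls 5 and 6. Endothelial markers summed to 9.05 to 9.63 CPM in co-culture, against 8.65 to 10.1 CPM in controls. Of 5 plasma cell markers only Sdc1, which other cells also carry, was above 1 CPM, and the sum was 168 to 170 CPM in co-culture, against 108 to 120 CPM in controls. The part of these marker differences in the results below was not tested.

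Of the 31 ER folding and degradation genes with enough counts to be tested, 12 fell, 1 rose and 18 did not pass in co-cultured smooth muscle cells, at an adjusted p under 0.05 (edgeR's quasi-likelihood test, Benjamini-Hochberg adjustment over all 12936 genes tested). Among all genes the same test called 10.3% lower and 10.3% higher. The genes that fell were the chaperones Hsp90b1 and Hyou1, the co-chaperones Dnajc3, Dnajb11 and Dnajb9, the disulfide enzymes Erp44 and Pdia4, the sensor Atf6, the transcription factor Xbp1, the ERAD genes Herpud1 and Edem1, and the translocon subunit Sec61a1. The 1 gene that rose was the ERAD mannosidase-like gene Edem2. Fold changes are given as log2 of co-culture over control, so that a negative value means a lower level in co-culture, each with its standard error (SE). The median over the 31 genes was -0.28, against -0.04 over all genes tested. Of the 31 values 29 were below 0, against 7239 of 12936 among all genes tested. Among the 12 genes the largest change was that of Atf6, at -0.51, and the smallest was that of Sec61a1, at -0.26, a level that fell by 16.3%. In RNA from a whole culture, fewer cells that express a gene and less RNA of it per cell cannot be told apart.

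**Figure D1:**
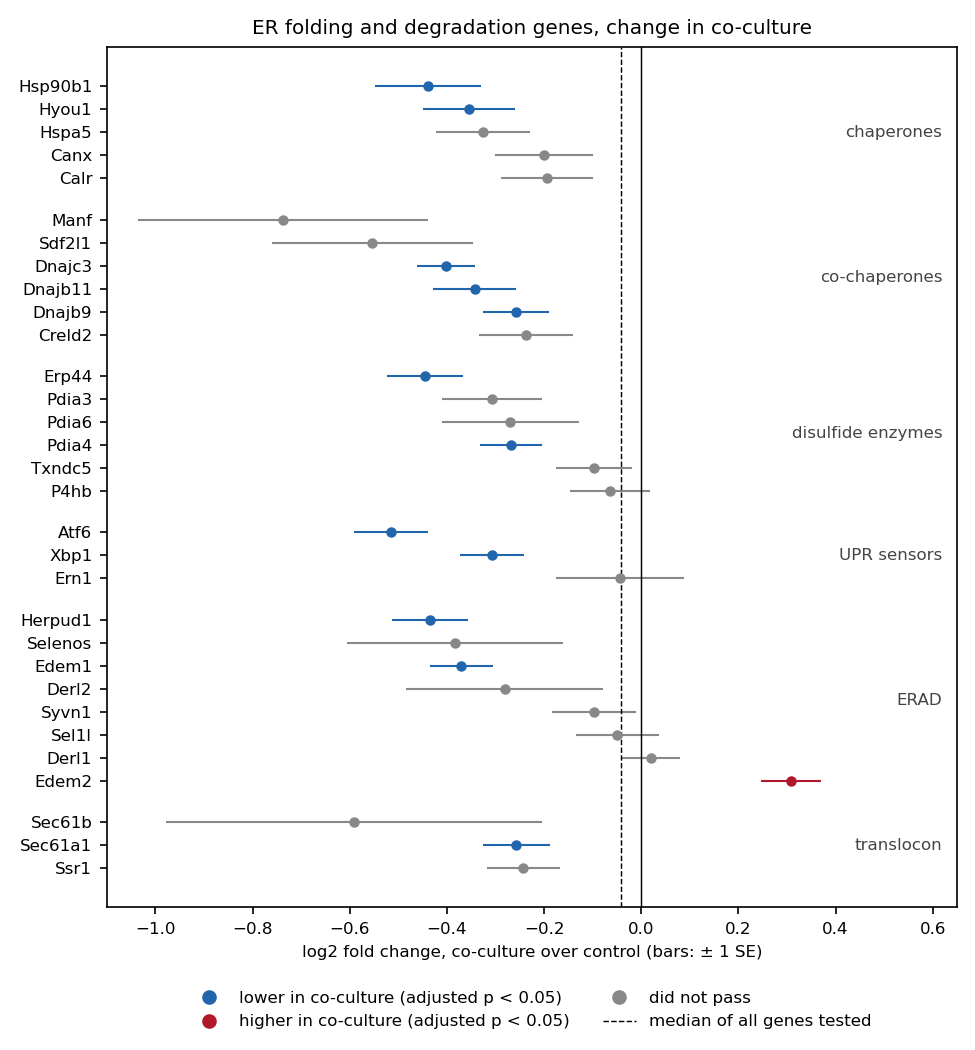
Log2 fold change of each tested gene (co-culture over control, horizontal axis, bars ± 1 SE, n = 3 per group), grouped by role. Genes called lower (12, blue) and higher (1, red) and the 18 that did not pass (grey) are set beside the median of all genes tested (dashed line at -0.04).

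The libraries of both groups were also compared gene by gene without a model. For 21 of the 31 genes all co-culture libraries lay below all control libraries, which was the case for 22.5% of all genes tested, and 9 of those 21 did not pass the test. For 1 gene, Edem2, all co-culture libraries lay above all controls, as for 20.4% of all genes. Averaged over the 31 genes, each gene's log2 CPM minus its own mean over the libraries was -0.11, -0.16 and -0.13 in the co-culture libraries, against 0.25, 0.07 and 0.08 in the controls (libraries 4, 5 and 6). The level of all 3 co-culture libraries was thus below that of every control, and control library 4 was the highest.

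Without control library 4, 18 of the 31 genes fell and 1 rose, against 19.9% lower and 18.7% higher among the 13077 genes then tested, and the median was -0.24. All 12 genes that had fallen did so there too. Leaving out any of the other libraries gave fewer genes lower than the 12 with all libraries. Without co-culture 1, 2 or 3, 5, 3 and 3 genes were lower, against 4.71%, 4.86% and 4.58% of all genes, and 0 were higher, against 5.11%, 5.4% and 4.69%. Without control 5 or 6, 5 genes each were lower, against 5.93% and 5.82%, and 0 were higher, against 6.35% and 6.9%. The median stayed between -0.33 and -0.25 in these 5 analyses. Atf6 and Dnajc3 were called under each of 12 alternative analyses. The calls of Hsp90b1, Hyou1, Dnajb9, Pdia4, Sec61a1 and Edem2 were lost whichever of the other 5 libraries was left out. That of Dnajb11 was lost without co-culture 2, co-culture 3, control 5 or control 6, that of Xbp1 without any co-culture library or control 5, and that of Edem1 without co-culture 1, co-culture 2 or control 6. Erp44 lost its call without co-culture 2 or 3, and Herpud1 without co-culture 3. DESeq2 gave 9 genes lower and 1 higher, against 8.26% and 8.45% of all genes, and its size factors in edgeR gave 9 and 1, against 9.11% and 10.3%. With no filter on low counts 10 were lower and 1 higher, against 7.03% and 6.97%, and with a weight per library from limma 18 and 1, against 19.2% and 17%. Scaling by library totals alone gave 3 genes lower, against 5.23% of all genes, and 1 higher, against 11.2%. That scaling moved the median of all genes up by 0.11, and the genes described here had a median of -0.16. Relative to the median of all genes, their median was -0.23 there and -0.24 in the first analysis.

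The promoters of these genes were compared with the elements that the unfolded protein response is known to act through. Of the 32 genes, 27 were found in a RefSeq table of promoter windows (GRCm38.p6, 250 bases before to 50 after each start), and Derl1, Sec61a1, Atf6, Manf and Hyou1 were not. The 27 genes had 31 windows, and a gene was counted where any of its windows held the element. The ER stress response element (ERSE), searched on both strands as CCAAT, 9 bases of any kind and CCACG, was present in 9 of the 27 (33.3%), against 0.119% of all 32851 windows. ERSE-II, searched as ATTGG, 1 base of any kind and CCACG, was present in Herpud1 and Dnajb11 (7.41%), against 0.0365% of all windows. The letters CCACG, which both elements contain, were present in 24 of 27 (88.9%), against 32.8% of windows. The core of the XBP1 element, TGACGTGG, was present in Txndc5 alone of the 27, against 0.676% of windows, and TGACGTCA, the cyclic AMP response element to which ATF4-family proteins can bind, in 0 of 27, against 1.79%. A match is a description of the letters in the window and does not show binding. Since ER stress response elements are known from promoters of chaperone and ERAD genes, their share here is background and no result of these data. The 250 bases before the start of Hspa5, which encodes the main ER chaperone BiP, lie at chr2:34771840-34772089 on the plus strand, and are shown because this promoter is the textbook case, with the 1 exact ERSE in capitals.

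Hspa5: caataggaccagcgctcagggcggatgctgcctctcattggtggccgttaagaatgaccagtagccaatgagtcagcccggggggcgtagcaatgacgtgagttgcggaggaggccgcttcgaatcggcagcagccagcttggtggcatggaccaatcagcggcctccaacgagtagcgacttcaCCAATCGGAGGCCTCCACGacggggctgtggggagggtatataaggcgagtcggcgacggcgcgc

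The elements of the 4 genes that held one and fell are set beside that of Syvn1, which held one and did not pass. They are written in the direction of the element, 5′ to 3′, with the element in capitals and 6 bases on either side. The Hsp90b1 elements lie at chr10:86705632-86705662 and chr10:86705527-86705557, read from the minus and the plus strand. The others are read from the plus strand, at chr14:118937821-118937851 for Dnajc3, chr8:94386371-94386393 for Herpud1, chr16:22857846-22857868 for Dnajb11 and chr19:6046526-6046556 for Syvn1. Hsp90b1, Dnajc3, Herpud1 and Syvn1 carry the element before the start, and Dnajb11 carries it 7 to 17 bases after it.
Hsp90b1 distal ERSE: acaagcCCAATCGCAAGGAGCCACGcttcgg
Hsp90b1 proximal ERSE: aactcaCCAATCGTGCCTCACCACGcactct
Dnajc3 ERSE: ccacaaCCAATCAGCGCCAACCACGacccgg
Herpud1 ERSE-II: gcgctgATTGGGCCACGttggac
Dnajb11 ERSE-II: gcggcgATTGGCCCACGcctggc
Syvn1 ERSE: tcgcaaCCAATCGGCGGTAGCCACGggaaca

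Of the 10 tested genes with an ERSE or ERSE-II, 4 fell and 0 rose, with a median log2 fold change of -0.30. Of the 16 tested genes whose window held neither, 5 fell and 1 rose, with a median of -0.27. Genes outside the list with an ERSE were few. Of 8 tested, 0 fell and 3 rose, with a median of 0.11, and of 7 with an ERSE-II, 0 fell and 0 rose, with a median of -0.04. The genes described here thus had similar medians with and without an exact element, and the difference was not tested.

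Chaperones of the ER lumen bind unfolded stretches of new proteins or, in the case of the lectins, their sugar chains. All 5 were below 0, and 2 of them fell, against 10.3% of all genes called lower. Levels of different genes are compared per kilobase of transcript. Calr, the soluble lectin chaperone calreticulin, had the highest level of all 32 genes, at 592 CPM per kilobase in co-culture and 677 in controls. Next in co-culture were P4hb (426), Pdia3 (417) and Hsp90b1 (416), which in controls had 446, 516 and 564. Hsp90b1 (GRP94), an HSP90 chaperone that folds integrins and other client proteins, had 1041, 975 and 1084 CPM in co-culture (libraries 1, 2 and 3), against 1573, 1273 and 1359 CPM in controls (libraries 4, 5 and 6, in this order throughout). The highest co-culture value was below the lowest control, and control 4 was above the other controls. The log2 fold change was -0.44 (SE 0.11), with an adjusted p of 0.0328 by edgeR, and it was -0.35 without control 4.

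Hspa5 did not pass. It had 781, 689 and 767 CPM in co-culture, against 1017, 879.5 and 907 CPM in controls. The groups did not overlap, co-culture 2 was the lowest library and control 4 the highest. Its log2 fold change was -0.33 (SE 0.097), with an edgeR adjusted p of 0.0567, and without control 4 it was -0.26 with an adjusted p of 0.0065. Hyou1, a large HSP70-like protein that exchanges nucleotide on BiP, had 139.6, 133 and 145 CPM in co-culture, against 155, 184 and 194 CPM in controls. Here control 4 was the lowest control, and the change of -0.35 (SE 0.095, edgeR adjusted p 0.0427) became -0.44 without it. The lectin chaperones did not pass, with a log2 fold change of -0.19 for Calr and -0.20 for its membrane-bound relative Canx (calnexin), edgeR adjusted p 0.194 and 0.214. Without control 4 Calr was called, at -0.26 with an adjusted p of 0.00463, and Canx was at -0.11 with an adjusted p of 0.157. With all libraries in, for both, all co-culture libraries were still below all controls.

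Co-chaperones guide BiP to its clients or work beside it. All 6 had values below 0 with groups that did not overlap, and 3 fell. Among all genes tested, 22.5% had all co-culture libraries below all controls, and 10.3% were called lower. Dnajc3 (P58IPK), a J-domain protein that delivers unfolded proteins to BiP, had 149, 151 and 151 CPM in co-culture, against 208, 191 and 199 CPM in controls. Its groups were far apart for the spread within them, and its log2 fold change was -0.40 (SE 0.060, edgeR adjusted p 0.00569), and -0.37 without control 4. The gene lies at chr14:118937932-118981702. Dnajb11 (ERdj3), another J-domain partner of BiP, had 105, 89.4 and 94.2 CPM in co-culture, against 131, 118 and 117 CPM in controls, with co-culture 1 nearest to the controls. Dnajb9 (ERdj4), which with BiP holds Ern1 inactive, had 38.1, 38.1 and 38.9 CPM in co-culture, against 46.3, 48.1 and 43.2 CPM in controls. Their log2 fold changes were -0.34 (SE 0.085, edgeR adjusted p 0.0324) and -0.26 (SE 0.068, edgeR adjusted p 0.0401).

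The remaining co-chaperones had short transcripts and did not pass. Manf, a small secreted ER stress protein, had 145, 128 and 129 CPM in co-culture, against 346, 156 and 169 CPM in controls. Control 4 thus held more than either other control, and the log2 fold change of -0.74 (SE 0.30, edgeR adjusted p 0.132) became -0.28 without that library, where the adjusted p was 0.00514. Sdf2l1, a partner of Dnajb11, was likewise highest in control 4, with 11.1, 9.82 and 11.01 CPM in co-culture, against 21.1, 13.0 and 12.9 CPM in controls. Its change was -0.55 with all libraries and -0.28 without control 4, with edgeR adjusted p of 0.108 and 0.0455. Creld2, a disulfide-handling protein induced by ER stress, had a change of -0.24 (edgeR adjusted p 0.131), and -0.15 without control 4.

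**Figure D2:**
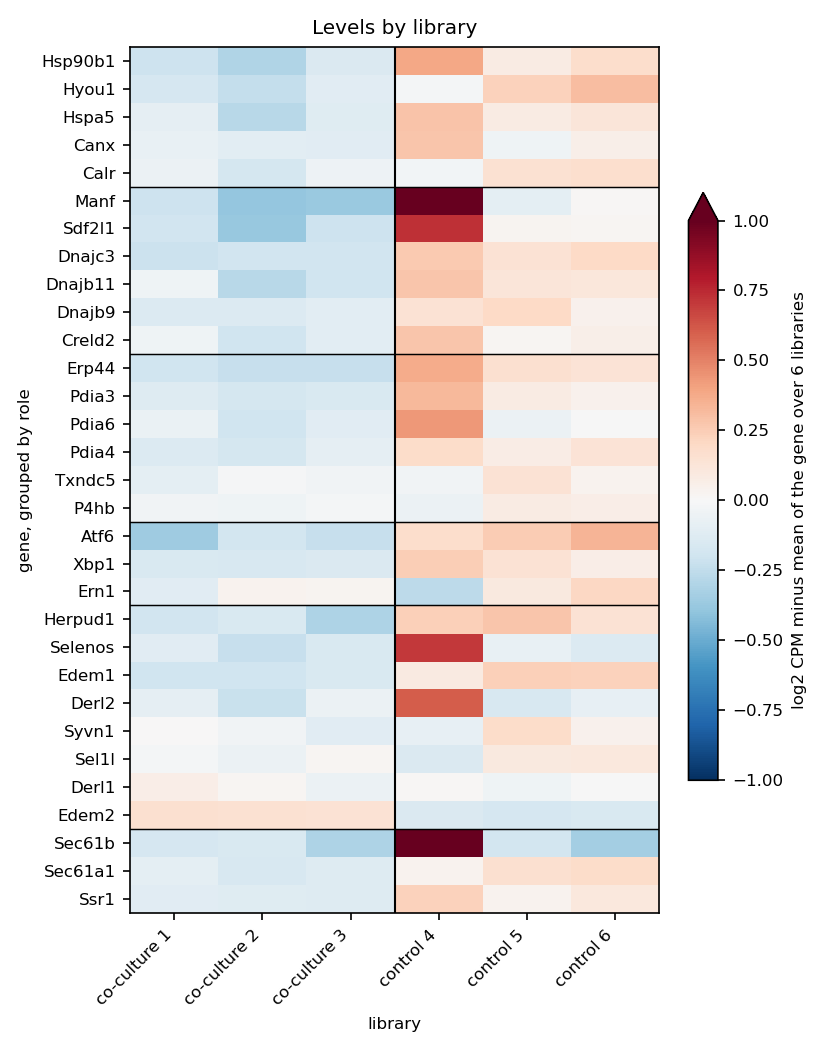
Log2 CPM of each tested gene in each library minus the gene's mean over the 6 libraries (colour scale, ended at 1), genes grouped by role, co-culture libraries to the left of controls. Most rows are below their mean in co-culture, and Manf, Sdf2l1, Selenos, Derl2 and Sec61b are highest in control library 4.

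Control library 4 was high for short transcripts among these genes, as among all genes. Of the 5 tested genes under 1500 bases, all 5 were higher in control 4 than in both other controls, by a median of 0.81 on the log2 scale over their mean (range 0.24 to 1.42). Of the 26 longer genes, 14 were higher than both and 10 lower, by a median of 0.03 (range -0.42 to 0.73). None of the 12 genes that fell was under 1500 bases. Taking out a trend of level on transcript length in each library, an analysis chosen after seeing the data, gave 16 genes lower and 1 higher, against 14.2% lower and 13.9% higher among all genes, and all 12 stayed called.

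**Figure D3:**
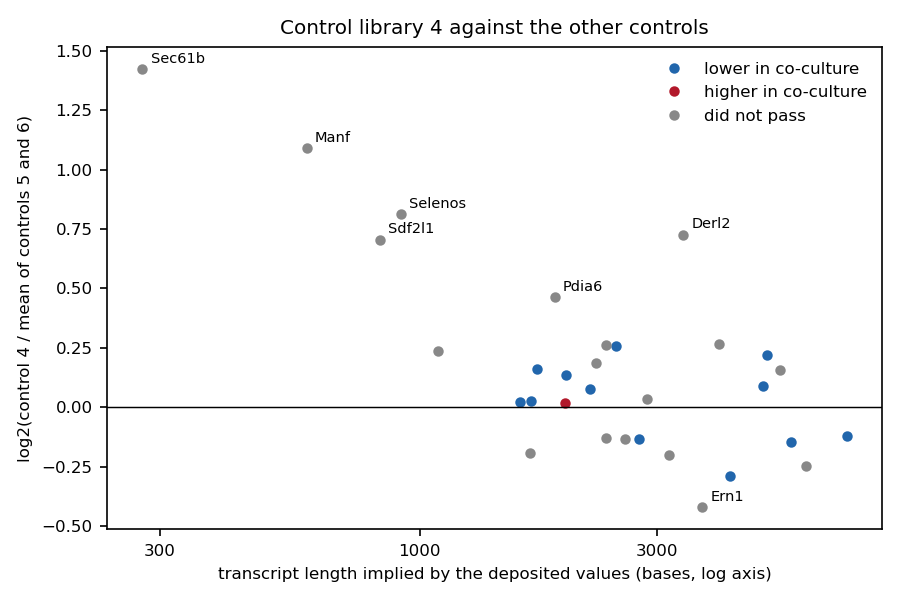
Level of each tested gene in control library 4 over the mean of control libraries 5 and 6 (log2, vertical axis) against transcript length in bases (log axis), coloured by the call with all libraries. The 5 genes under 1500 bases lie between 0.24 and 1.42, and the 26 longer genes between -0.42 and 0.73.

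Disulfide enzymes make, break and rearrange the bonds between cysteines of secreted proteins. All 6 had values below 0, and 2 fell, against 10.3% of all genes called lower. Erp44, which retains immature secreted proteins and the oxidase Ero1 in the early secretory pathway, had 67.9, 66.5 and 66.5 CPM in co-culture, against 101, 87.0 and 85.7 CPM in controls. The co-culture libraries differed from each other by less than 2 CPM, and the log2 fold change was -0.44 (SE 0.078, edgeR adjusted p 0.0102). Pdia4 (ERp72) had 222, 215 and 229 CPM in co-culture, against 277, 257 and 268 CPM in controls, a change of -0.27 (SE 0.064, edgeR adjusted p 0.0296). For both genes every co-culture library was below every control. Pdia3 (ERp57), the isomerase that works with calnexin and calreticulin, had a change of -0.31 (edgeR adjusted p 0.0791), and -0.21 without control 4, where the adjusted p was 0.00817. Pdia6 (P5) had -0.27, and -0.10 without control 4. P4hb (protein disulfide isomerase), which is also a subunit of the collagen prolyl hydroxylases, had 1099, 1096 and 1111 CPM in co-culture, against 1083, 1195 and 1179 CPM in controls. Its groups overlapped and its change was -0.06 (SE 0.082, edgeR adjusted p 0.61), and -0.11 without control 4. Txndc5 (ERp46) had -0.10, and its groups overlapped too. Under scaling by library totals alone, the values of P4hb and Txndc5 were 0.04 and 0.0045.

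Of the sensors, Atf6 fell and Ern1 did not pass, and the transcription factor Xbp1, grouped with them here, fell. Atf6, at chr1:170704457-170868585, had 51.2, 57.6 and 55.8 CPM in co-culture, against 74.1, 78.1 and 83.2 CPM in controls. The groups were separated by more than the spread within either, with co-culture 1 the lowest library and control 6 the highest. Its log2 fold change of -0.51 (SE 0.076, edgeR adjusted p 0.00528) was the largest among the genes that fell, and was -0.56 without control 4. Xbp1, at chr11:5520641-5525993, had 81.6, 80.9 and 81.9 CPM in co-culture, against 107, 100.3 and 94.9 CPM in controls. The co-culture libraries were nearly equal and lay below all controls, and the change was -0.31 (SE 0.066, edgeR adjusted p 0.0201). Ern1 had 23.9, 26.5 and 26.4 CPM in co-culture, against 21.5, 27.6 and 29.9 CPM in controls. Control 4 was the lowest library and control 6 the highest, the groups overlapped, and the change was -0.04 (SE 0.13, edgeR adjusted p 0.838), and -0.17 without control 4. Its sign turned under scaling by library totals and without co-culture 1 or control 6. Per kilobase, Ern1 and Atf6 had the lowest levels of the tested genes, with 6.92 and 7.58 CPM in co-culture, against 7.12 and 10.8 CPM in controls.

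Xbp1 mRNA reports on Ern1 directly, since Ern1 removes 26 bases from it. The sequence around that piece is shown because the 2 Xbp1 transcripts in the deposited table differ by it. In the GENCODE M21 transcript it lies in exon 4 of 5, at chr11:5524279-5524304 of GRCm38 on the plus strand, and the removed bases are in capitals. With them the longest reading frame has 267 codons before its stop, and without them it has 371, which is the frame of the active transcription factor.
Xbp1: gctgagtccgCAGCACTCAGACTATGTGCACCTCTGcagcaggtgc

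The unspliced transcript had 68.8, 74.4 and 68.2 CPM in co-culture, against 86.1, 82.8 and 78.2 CPM in controls. The spliced transcript had 13.5, 6.99 and 14.1 CPM in co-culture, against 21.1, 18.0 and 17.5 CPM in controls. For both transcripts all co-culture libraries were below all controls, and co-culture 2 held the least of the spliced and the most of the unspliced form within its group. Tested over all 33858 transcripts, neither passed, with log2 fold changes of -0.22 (SE 0.070, edgeR adjusted p 0.225) for the unspliced and -0.71 (SE 0.29, edgeR adjusted p 0.356) for the spliced form. Without co-culture 2 the change of the spliced form was -0.45. The spliced form took 16.4%, 8.60% and 17.1% of the Xbp1 counts in co-culture, against 19.7%, 17.8% and 18.2% in controls. The means were 14.0% ± 4.71 in co-culture and 18.6% ± 0.975 in controls (SD, n = 3 each), a difference of -4.56 percentage points. Without co-culture 2, an analysis chosen after seeing the data, the co-culture mean was 16.7% and the difference -1.85 points. The exact two-sided permutation test gave p = 0.1, which is the smallest value that 3 against 3 libraries allow. These shares rest on how the authors' program divided reads between transcripts that are alike except for the 26 bases, and on 126 to 342 estimated counts of the spliced form per library.

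**Figure D4:**
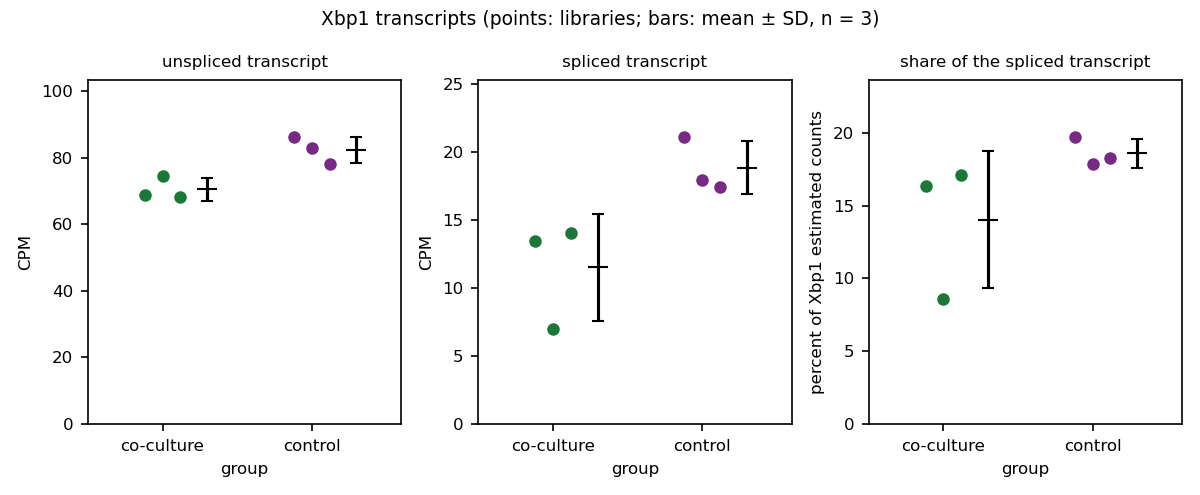
CPM of the unspliced and spliced Xbp1 transcripts and the percent of Xbp1 estimated counts given to the spliced one, in each co-culture library (green) and control library (purple), with mean ± SD (n = 3). The spliced share averages 14.0% in co-culture, with co-culture 2 at 8.60%, and 18.6% in controls.

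Other transcripts of these genes gave little beyond the gene values. Of 55 transcripts tested from the 31 genes, 1 fell and 0 rose, against 0.942% lower among all transcripts. The 1 was the Dnajc3 transcript (log2 fold change -0.40, edgeR adjusted p 0.0383). For Hspa5, the less abundant of 2 transcripts had 59.6 ± 3.41 CPM in co-culture, against 92.9 ± 16.7 CPM in controls, with -0.64 (SE 0.14, edgeR adjusted p 0.0939). The more abundant had 690.2 ± 47.8 CPM in co-culture, against 845 ± 51.9 CPM in controls, with -0.29 (SE 0.086, edgeR adjusted p 0.203). A shift of reads between transcripts of one gene was tested with edgeR's diffSpliceDGE in the 16 genes with 2 or more transcripts. None was called, against 0.443% of all genes, and 0 had an unadjusted p under 0.05, the lowest being 0.279 and the test being run with that tool alone.

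ERAD recognises misfolded glycoproteins, moves them through a membrane channel and tags them with ubiquitin. Of 9 genes, 8 could be tested, 2 fell and 1 rose, against 10.3% lower and 10.3% higher among all genes. Herpud1, which assembles the channel complex and is itself strongly induced by ER stress, had 28.8, 29.7 and 26.6 CPM in co-culture, against 38.9, 39.9 and 36.4 CPM in controls. Edem1, a mannosidase-like protein that marks glycoproteins for degradation, had 102, 103 and 106 CPM in co-culture, against 125, 139 and 138 CPM in controls. In both, every co-culture library was below every control, and the log2 fold changes were -0.43 (SE 0.077, edgeR adjusted p 0.0106) for Herpud1 and -0.37 (SE 0.065, edgeR adjusted p 0.00995) for Edem1.

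Edem2, the family member that takes the first mannose off the glycan, moved the other way. It had 36.6, 36.4 and 36.2 CPM in co-culture, against 29.7, 29.1 and 29.4 CPM in controls. The libraries within each group differed by less than 1 CPM, and the change was 0.31 (SE 0.062, edgeR adjusted p 0.0161), as it was without control 4. Edem2 lies at chr2:155701673-155729475. Edem3, the third family member and not among the 32 genes, fell by 0.35 on the log2 scale (SE 0.082, edgeR adjusted p 0.026).

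The membrane core of ERAD did not pass. The ubiquitin ligase Syvn1 (HRD1) had 39.5, 38.3 and 36.4 CPM in co-culture, against 37.1, 44.5 and 40.6 CPM in controls. Its partner Sel1l, which links it to its substrates, had 211, 205 and 217 CPM in co-culture, against 194, 229 and 231 CPM in controls. The groups overlapped in both, with control 4 the lowest control, and the changes were -0.10 (SE 0.087) and -0.05 (SE 0.085), and -0.16 and -0.13 without control 4. Their values turned to 0.0019 and 0.05 under scaling by library totals. The channel gene Derl1 had 0.02 (SE 0.060), and 0.03 without control 4. Its relative Derl2 had 48.3, 44.0 and 49.3 CPM in co-culture, against 77.9, 45.7 and 48.4 CPM in controls, and Selenos, which recruits the ATPase p97 to the channel, had 72.6, 67.1 and 70.8 CPM in co-culture, against 128, 74.7 and 71.6 CPM in controls. Control 4 was the highest library in both, and their changes of -0.28 and -0.38 became 0.0027 and -0.06 without it. Derl3 was too low to test, with 2, 4 and 3 counts in co-culture and 1, 2 and 2 counts in controls.

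The translocon moves new proteins into the ER. Sec61a1, its pore subunit, had 262, 251 and 256 CPM in co-culture, against 288, 313 and 319 CPM in controls, and fell by 0.26 on the log2 scale (SE 0.069, edgeR adjusted p 0.0421). All co-culture libraries were below all controls. Sec61b, a small subunit and at an implied 277 bases the shortest transcript of the 32, had 54.9, 55.5 and 49.9 CPM in co-culture, against 138, 54.5 and 48.7 CPM in controls. Apart from control 4 the groups overlapped fully, and the change of -0.59 (SE 0.39, edgeR adjusted p 0.321) became 0.05 without that library. Ssr1, a subunit of the translocon-associated protein complex, had 335, 333 and 330.0 CPM in co-culture, against 423, 370.0 and 388 CPM in controls. Its groups did not overlap, and its change was -0.24 (SE 0.075, edgeR adjusted p 0.0639), and -0.19 with an adjusted p of 0.0118 without control 4.

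By role, the median log2 fold change was -0.33 for chaperones, -0.37 for co-chaperones, -0.27 for disulfide enzymes, -0.31 for sensors with Xbp1, -0.26 for the translocon and -0.19 for ERAD. Without control 4 these medians were -0.26, -0.28, -0.18, -0.26, -0.19 and -0.09. Because library strandedness was not given in the sources used here, reads of overlapping genes cannot be told apart. For 13 of the 32 genes another RefSeq gene overlaps the span, and 6 of them, Dnajb11, Dnajc3, Pdia4, Erp44, Atf6 and Edem1, are among those that fell.

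Genes of other lists, of ER functions or related to them, were together lower more often than higher. These lists include cytosolic heat shock genes, which belong to another pathway and had 6 lower and 1 higher of 19. Over 163 tested genes of 10 lists, 30 fell and 3 rose, which is 18.4% lower against 10.3% of all genes, and the median was -0.21. Without control 4, 79 of them fell and 8 rose, against 19.9% lower and 18.7% higher among all genes. Among other oxidoreductases of the ER, 5 of 16 fell and 0 rose (9 lower without control 4). Ero1l, the oxidase that recharges disulfide isomerases, had 55.1 ± 2.44 CPM in co-culture, against 82.5 ± 3.50 CPM in controls (-0.58, edgeR adjusted p 0.00191). Tmx1 and Txndc16 fell by 0.45 and fell by 0.44 on the log2 scale. In the list of calnexin cycle and N-glycan trimming genes 2 of 12 fell (9 without control 4). They were Mcfd2, a cargo receptor subunit (-0.47), and Edem3. Of 22 other ERAD genes 3 fell (10 without control 4), with the ubiquitin-conjugating enzyme Ube2g2 at 59.6 ± 1.78 CPM in co-culture, against 91.2 ± 4.56 CPM in controls (-0.61, edgeR adjusted p 0.00151), Nploc4, a cofactor of p97, at -0.29, and the ligase Rnf185 at -0.23. Of 27 other translocon, signal peptidase and oligosaccharyltransferase genes 1 fell, Rpn1 (-0.26), and without control 4, 10 fell and 1 rose.

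With all libraries, stress-signalling lists had 7.14% (other transducers) to 27.8% (PERK and ATF4 branch) called lower, against 10.3% of all genes. Without control 4 the same lists had 6 of 14 and 8 of 18 genes lower, against 19.9% of all genes. Differences between the lists were not tested. Of 14 other transducers of the unfolded protein response 1 fell (6 without control 4). It was Eif2ak3 (PERK), with 56.3 ± 1.64 CPM in co-culture, against 68.3 ± 3.03 CPM in controls (-0.28, edgeR adjusted p 0.0245). In the PERK and ATF4 branch 5 of 18 fell and 0 rose (8 lower without control 4). Trib3, a pseudokinase induced by ATF4, had 3.45 ± 0.490 CPM in co-culture, against 7.63 ± 0.694 CPM in controls (-1.14, edgeR adjusted p 0.00287). Atf4 itself had 102 ± 4.56 CPM in co-culture, against 134 ± 18.7 CPM in controls (-0.39, edgeR adjusted p 0.0441), and Asns, the asparagine synthetase it induces, had -0.34. Of 8 transcripts known to be degraded by Ern1, 2 fell, Sparc (-0.50) and Galnt10 (-0.41), and without control 4, 3 fell and 1 rose. All co-culture libraries lay above all controls for 2 of the 8 and below them for 2, against 20.4% and 22.5% of all genes tested. Of 6 ER-phagy receptors 1 fell, Ccpg1 (-0.43), and 4 did without control 4.

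Collagen chaperones and modifying enzymes share the ER with the 32 genes, and 4 of 21 fell and 2 rose (12 lower and 2 higher without control 4). Plod1, a lysyl hydroxylase of collagen, had 105 ± 6.17 CPM in co-culture, against 189 ± 25.9 CPM in controls (-0.84, edgeR adjusted p 0.00355). Serpinh1 (HSP47), the collagen-specific chaperone, had 952 ± 30.4 CPM in co-culture, against 1319.5 ± 82.4 CPM in controls (-0.47, edgeR adjusted p 0.0125), and Fkbp14, a prolyl isomerase, had -0.69. P4ha3, a catalytic subunit of prolyl hydroxylase, rose by 0.57. Of 19 cytosolic heat shock genes, which answer to another stress pathway, 6 fell and 1 rose (8 lower and 4 higher without control 4). Hspb1 had 20.6 ± 0.972 CPM in co-culture, against 38.8 ± 1.82 CPM in controls (-0.91, edgeR adjusted p 6.48e-04), and Hspa4l had -0.55. Hspa1b had -1.04, but its counts are uncertain, since it is nearly identical to Hspa1a. Of the 23 genes named from these lists, 10 were called with each library left out in turn, namely Ero1l, Txndc16, Ube2g2, Trib3, Plod1, P4ha3, Hspa1b, Hspb1, Hspa4l and Ccpg1. Each of the other 13 kept its call in only 1 to 3 of the 6 such analyses. Eif2ak3 and Serpinh1 kept it in 1, Atf4 in 2 and Fkbp14 in 3.

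**Figure D5:**
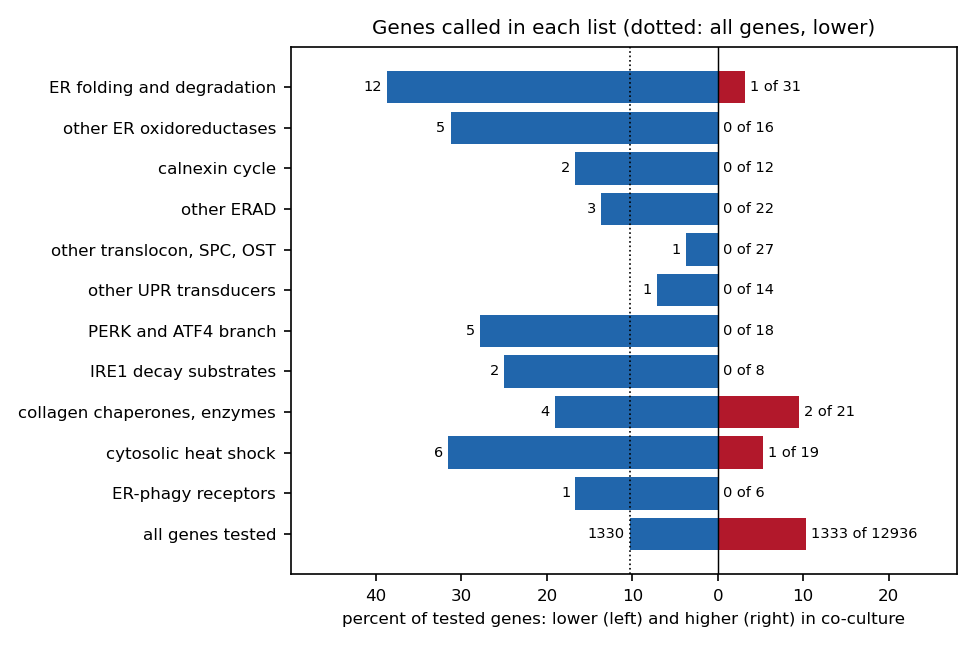
Percent of tested genes called lower (blue, to the left) and higher (red, to the right) in co-culture for the ER folding and degradation genes, 10 other lists and all genes, with counts beside the bars. The 32 genes have 12 of 31 lower, and the dotted line marks the 10.3% of all genes called lower.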

How the data were processed

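Libraries of 3 co-culture and 3 control samples were compared. Per the labels' protocols the aligner was HISAT, and per the submitters' processing notes the build was mm10. Counting program, annotation, strandedness and versions: not given in the sources used here. The authors deposited estimated counts per gene and per transcript, which need not be whole, and FPKM values, which per the file headers are scaled to transcript length and depth. FPKM of co-culture libraries served only to imply transcript lengths. The columns number the controls 4 to 6 whereas the labels number them from 1, so a control column stands for its group only. A further 18 per-sample columns were not used.

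Estimated counts were rounded and tested with edgeR 4.0.16 (R 4.3.3): filterByExpr, TMM factors, glmQLFit and glmQLFTest, no covariate, two-sided, Benjamini-Hochberg adjustment over all features, called at an adjusted p under 0.05. The code was tested on simulated data. CPM are counts per 1000000 counts of the TMM-scaled library. An SE is the size of the log2 fold change over the root of its F statistic. Genes of other lists are named by a rule: from each list up to 3 called genes with the largest change, and Eif2ak3, Serpinh1 and Atf4 in any case. The 32 genes and the other lists were chosen with earlier results of these data known, so counts over a list are descriptions. Of 17023 gene IDs, 16975 were found in the RefSeq genes of GRCm38.p6 (the assembly called mm10), which give the coordinates. Promoter windows are from RefSeq and the Xbp1 transcript from GENCODE M21. Protein sequences were not analysed here. Alternatives were DESeq2 1.42.0 (its test, and its size factors in edgeR), library totals, no filter, limma 3.58.1 with quality weights, each library left out, and a length trend taken out.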

Additional observations from a re-analysis of the deposited data

How the results depend on the processing

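Counts of calls moved more than directions. With library totals alone 3 of the 32 genes were lower, all genes called lower were 676, and the median of the 32 was -0.1614. Quality weights gave 2201 genes higher and 2488 lower. With each library left out in turn, 3 to 18 of the 32 genes were lower and 0 to 1 higher, all genes called higher ranged over 612 to 2445 and lower over 598 to 2598, and the median stayed between -0.3299 and -0.243. The log2 fold changes of 8 genes turned sign, and among them Derl2 (-0.2805) and Sec61b (-0.5907) were not near 0 with all libraries. The turned values were 0.0366 (P4hb), 0.0045 (Txndc5), 0.0516 (Ern1), 0.0493 (Sel1l) and 0.0019 (Syvn1) with library totals, 0.0042 (Ern1) and -0.0056 (Derl1) without co-culture 1, 0.0784 (Ern1) and 0.0159 (Sel1l) without control 6, and 0.0027 (Derl2) and 0.0496 (Sec61b) without control 4. With each library left out in turn, these genes ranged over -0.17 to 0.0784 (Ern1), -0.1265 to 0.0159 (Sel1l), -0.0056 to 0.0532 (Derl1), -0.4206 to 0.0027 (Derl2) and -0.8172 to 0.0496 (Sec61b). The causes were not tested. Over single genes, transcripts and the Xbp1 share, 304 values under an alternative kept direction and call, 62 lost the call, 17 gained one and 11 turned sign. No paired analysis was possible because the control columns carry numbers that the labels do not. Derl3 had too few counts for a test.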
